A study of Mus musculus with 45 samples.

Results

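The effect of a Western diet on hippocampal gene expression was examined in AwT+ mice, which carry the human Tau P301L transgene and no APP/PS1 transgene. The comparison takes in the 12 mice of 45 whose labels give this genotype: 6 were fed a standard diet (STD, 5% fat and 0% cholesterol, group AwT+/STD) and 6 a typical Western diet (TWD, 21% fat, 0.15% cholesterol and 35% sucrose, group AwT+/TWD). All 12 were females on the C57Bl/6J background that started the diet at 7 months and were killed at 13 months of age. The transgene is driven by the CaMKII promoter, which is active in excitatory forebrain neurons, so glia, vessels and most interneurons carry it without being its main site of expression. The other 33 mice were AwTw (neither transgene, 12 mice), A+Tw (the APPswe/PS1dE9 transgene, 11 mice) and A+T+ (both transgenes, 10 mice) on the same diets, and they entered the fit and a few comparisons only. The labels give each mouse a batch, 0 or 1, of a kind they do not name. Batch 0 held 3 AwT+/STD and 2 AwT+/TWD mice, and batch 1 held 3 and 4.

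Tau, the product of Mapt, binds and stabilizes axonal microtubules, and the P301L mutation makes it prone to aggregation. Tau is phosphorylated by Gsk3b and other kinases, and Gsk3b is itself inhibited when insulin receptors act through PI3K and Akt. Microglia, the macrophages of the brain, sense lipids and debris through the receptor Trem2 and its signalling adaptor Tyrobp, and a diet rich in saturated fat, cholesterol and sugar is known to affect insulin signalling, blood vessels and microglia. These are the reasons for looking first at insulin signalling, tau-related, microglial, vascular and lipid genes here.

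The table holds 15897 genes, with values on a log2 scale that the authors had stabilized for variance and corrected for batch. A value is therefore a level of 1 gene in 1 mouse, and a log2 fold change is the difference between the diets (TWD minus STD, ± standard error) in a limma fit over all 45 mice with batch as a covariate. The table gives no read counts, so the depth per mouse is unknown. App separated the mice with the APP/PS1 transgene from the others without overlap, at 15.05 to 15.80 against 14.29 to 14.86, and so did Prnp, at 14.65 to 15.02 against 13.28 to 13.98. Mapt did not separate the mice with the tau transgene (12.59 to 13.40 in 22 mice) from those without it (12.61 to 13.16 in 23 mice), so these values do not check the tau label by its own gene. The 20 hippocampal subfield genes measured averaged 9.18 to 9.42 in AwT+/STD and 9.20 to 9.44 in AwT+/TWD mice. Choroid plexus markers, which tell how much of that tissue came with a dissection, ranged over several log2 units within both groups and are described with their values further on. AwT+/TWD mice 3 and 4 stood at the opposite ends of the main axis of variation among the 12, and both moved many of the counts given here.

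No gene reached an adjusted p of 0.05 for diet in AwT+ mice in limma, either higher (0 of 15897, 0.0%) or lower (0 of 15897, 0.0%), and the smallest adjusted p was 0.646. Counts below are therefore of genes at an unadjusted limma p under 0.05, called the threshold from here on, and single genes are given with their log2 fold change ± standard error. Each gene named was under the threshold unless it is said not to be. At an unadjusted p under 0.05, 855 genes (5.38%) were higher on TWD and 328 (2.06%) were lower. Each list count below is to be read against these shares of all genes. The values of 125 genes (0.786%) were higher in each AwT+/TWD mouse than in any AwT+/STD mouse, and those of 24 genes (0.151%) were lower. The median half-width of the 95% interval of a log2 fold change was 0.31, and for 94.0% of genes this interval lay within 1 log2 unit of 0. The 855 higher genes had short transcripts, with a median length of 1146 bases against 1826 over all genes, and the 328 lower genes had long ones, with a median of 2720 bases. The part of transcript length in the counts was not tested beyond a fit with the trend over length and GC content removed, which gave 735 higher and 456 lower genes. Leaving out AwT+/TWD mouse 3 reduced the higher and lower genes to 435 and 147, leaving out AwT+/TWD mouse 4 raised them to 1383 and 541, leaving out AwT+/TWD mouse 5 gave 880 and 589, and leaving out AwT+/STD mouse 5 gave 582 and 198. The counts within gene lists moved as well, so most are followed by their lowest and highest value over the 12 fits that leave out 1 AwT+ mouse each. The share of all genes higher in those fits ran from 2.74% (without TWD mouse 3) to 8.70% (without TWD mouse 4). The share lower ran from 0.92% (without TWD mouse 3) to 3.7% (without TWD mouse 5). For several lists the median is also given after 1 or both of 2 corrections. The first is a nuisance score used as a covariate, and the second is the removal of the length and GC trend. The gene weights of the score came from the main axis of residual variation of all 45 mice. The score itself was computed from the full values, so it can hold part of a diet difference. It ran from 0.12 to 0.87 in AwT+/STD mice and from -1.67 to 1.24 in AwT+/TWD mice.

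Among the 12 genes with the smallest p on the higher side, of which 11 are named, an endothelial surface protein led, followed by genes of mitochondria, neurons and membranes. Ly6a (Sca-1), a membrane-anchored protein that marks mouse brain endothelium, lies on chromosome 15, 74994877 to 74998031 (GRCm38). Its level ranged from 7.39 to 7.86 on STD (median 7.57) and from 7.94 to 8.91 on TWD (median 8.16). Each TWD mouse was above each STD mouse (log2 fold change 0.71 ± 0.17, adjusted p = 0.646 in limma), and the difference was 0.45 in batch 0 and 0.86 in batch 1. Ly6a belongs to a cluster of similar Ly6 genes, and the assignment of reads among them is uncertain. Fh1, the fumarate hydratase of the citric acid cycle, ranged from 9.77 to 9.93 on STD (median 9.87) and from 10.19 to 10.47 on TWD (median 10.28). The 12 mice formed a pair of tight clusters without overlap for this gene (log2 fold change 0.44 ± 0.12). Coa7, an assembly factor of cytochrome c oxidase, ranged from 7.34 to 7.78 on STD (median 7.59) and from 7.82 to 8.40 on TWD (median 8.00), likewise without overlap (log2 fold change 0.48 ± 0.12).

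**Figure D1:**
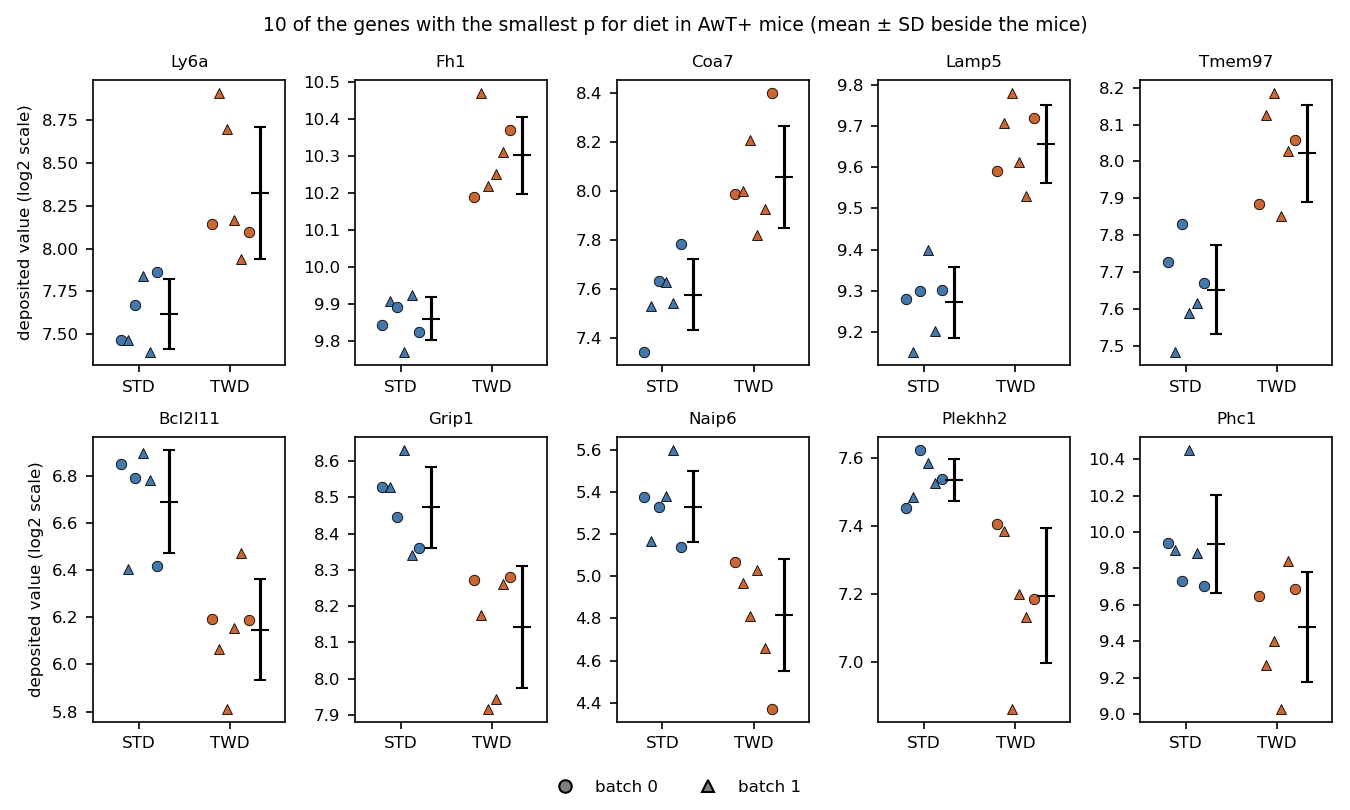
Level of 10 genes in each AwT+ mouse (y axis, deposited log2-scale value; x axis, diet), with circles for batch 0, triangles for batch 1 and the mean ± SD of 6 mice beside each group. The diets do not overlap for Ly6a, Fh1, Coa7, Lamp5, Tmem97, Grip1, Naip6 and Plekhh2, while they overlap for Bcl2l11 and Phc1.

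Lamp5, a lysosome-related membrane protein of forebrain interneurons, ranged from 9.15 to 9.40 on STD (median 9.29) and from 9.53 to 9.78 on TWD (median 9.66). The groups did not overlap, and the difference was 0.36 in batch 0 and 0.41 in batch 1 (log2 fold change 0.39 ± 0.11). Tmem97, an endoplasmic reticulum protein that takes part in cholesterol handling, ranged from 7.48 to 7.83 on STD (median 7.64) and from 7.85 to 8.19 on TWD (median 8.04), again without overlap (log2 fold change 0.37 ± 0.11). Rnf121, a membrane-bound ubiquitin ligase, was also free of overlap (log2 fold change 0.33 ± 0.09). In the remaining 5 named genes the diets overlapped in at least 1 mouse. They were Stmn4, a microtubule-destabilizing stathmin (0.29 ± 0.08), Kcnk6, a potassium leak channel (0.46 ± 0.13), Eci2, an isomerase for the oxidation of unsaturated fatty acids (0.28 ± 0.08), Anxa3, a phospholipid-binding annexin (0.46 ± 0.13), and the splicing factor Isy1 (0.39 ± 0.11). All 11 were higher in both batches. They were chosen for a small p in these same mice, which favours such agreement and a lack of overlap, so both are a description. The same holds for the lower genes that follow.

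The 12 named genes on the lower side were led by regulators of cell death, chromatin and signalling. Bcl2l11 encodes Bim, a pro-apoptotic member of the Bcl2 family, and lies on chromosome 2, 128126038 to 128162547. Its level ranged from 6.41 to 6.90 on STD (median 6.79) and from 5.81 to 6.47 on TWD (median 6.17). Of the 6 TWD mice, 5 were below every STD mouse (log2 fold change -0.55 ± 0.15), and the difference was -0.50 in batch 0 and -0.57 in batch 1. Grip1, a scaffold for AMPA-type glutamate receptors, ranged from 8.34 to 8.63 on STD (median 8.49) and from 7.92 to 8.28 on TWD (median 8.22). Its groups did not overlap (log2 fold change -0.33 ± 0.10). Plekhh2, an actin-associated protein, ranged from 7.46 to 7.62 on STD (median 7.53) and from 6.86 to 7.41 on TWD (median 7.19), also without overlap (log2 fold change -0.34 ± 0.12). Naip6, which belongs to a family of innate immune sensors with near-identical copies and is uncertain for that reason, did not overlap either (log2 fold change -0.52 ± 0.18).

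Further lower genes came from chromatin and signalling. Phc1, a subunit of a Polycomb repressive complex, differed by -0.46 ± 0.13, with -0.12 in batch 0 and -0.69 in batch 1, and 1 AwT+/STD mouse lay well above the rest. Kdm4d, a histone lysine demethylase, differed by -0.34 ± 0.10. Socs6, a suppressor of cytokine signalling (-0.59 ± 0.18), Traf3, an adaptor of TNF receptor signalling (-0.30 ± 0.09), and Gigyf1, an adaptor that binds the insulin receptor partner Grb10 (-0.31 ± 0.10), were lower in both batches. Cfap54, a protein of motile cilia, differed by -0.65 ± 0.19 and Tmem200a by -0.47 ± 0.16. Mtmr12, a partner of myotubularin phosphatases, differed by -0.31 ± 0.09, and its difference came from 1 batch, at 0.02 in batch 0 and -0.53 in batch 1.

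Genes that make proteins and energy were higher at many members. Of 79 cytosolic ribosomal protein genes, 29 were higher at that threshold and 0 lower, where 5.38% and 2.06% of all genes were, and all 79 had a positive log2 fold change (range 0.16 to 0.46, median 0.36). Of 74 genes of oxidative phosphorylation, 28 were higher and 0 lower (median 0.32), and of 77 mitochondrial ribosomal protein genes 16 were higher and 0 lower (median 0.22). Over all genes the median log2 fold change was 0.0065. Since genes of a group share mice and move together, these counts describe the 12 mice and are not a test of the groups.

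**Figure D2:**
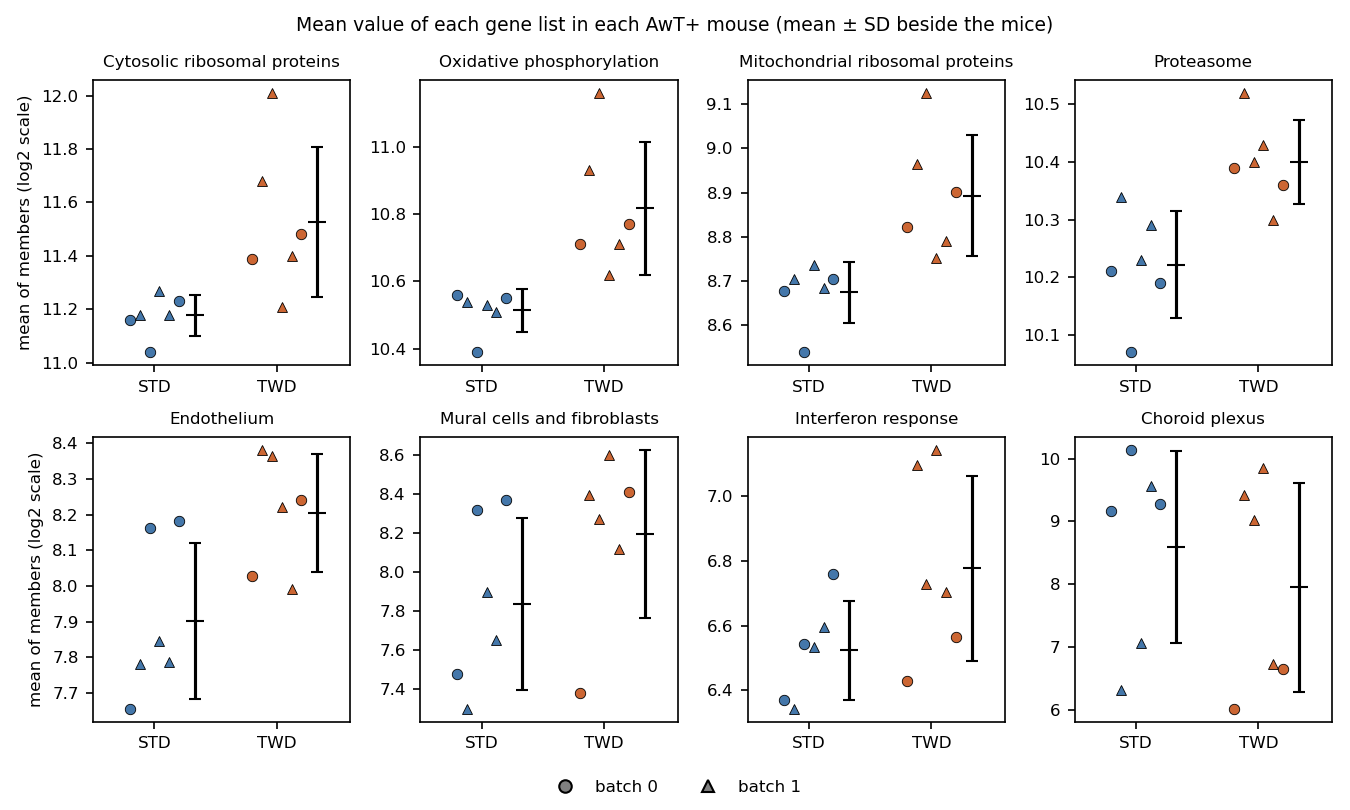
Mean level of the members of 8 gene lists in each AwT+ mouse (y axis, mean deposited log2-scale value; x axis, diet), with circles for batch 0, triangles for batch 1 and the mean ± SD of 6 mice beside each group. The oxidative phosphorylation and mitochondrial ribosomal means of the diets do not overlap, while the choroid plexus means of both diets run from about the same lowest to about the same highest level.

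The mean level of the oxidative phosphorylation genes ranged from 10.39 to 10.56 on STD (median 10.53) and from 10.62 to 11.16 on TWD (median 10.74). It was higher in each TWD mouse than in any STD mouse. The mean of the cytosolic ribosomal protein genes ranged from 11.04 to 11.27 on STD (median 11.18) and from 11.21 to 12.01 on TWD (median 11.44). Here AwT+/TWD mouse 3 was the highest at 12.01, and AwT+/TWD mouse 4, at 11.21, was the 1 TWD mouse within the STD range. The list medians were 0.25 in batch 0 and 0.38 in batch 1 for oxidative phosphorylation and 0.30 in batch 0 and 0.39 in batch 1 for cytosolic ribosomal proteins. In batch 0 alone the higher members were 1 of 74 and 0 of 79, where 477 of all 15897 genes were higher. In batch 1 alone they were 10 of 74 and 1 of 79, where 537 of all genes were higher. Each of these fits holds fewer mice than the main fit. With the length and GC trend removed they were 13 of 74 and 13 of 79, where 735 of 15695 genes were higher. Without mouse 3 the higher members were 10 of 74 and 6 of 79, where 2.74% of all genes were higher, and without mouse 4 they were 41 and 54, where 8.70% were. Without AwT+/STD mouse 5 they were 22 and 16, where 3.66% were, and the values without each other mouse lay between those without mice 3 and 4. The higher mitochondrial ribosomal members were between 7 (without TWD mouse 3) and 26 (without TWD mouse 4). They were 6 of 77 in batch 0 alone, 6 in batch 1 alone and 12 with the length and GC trend removed. The 10 nuclear long noncoding RNAs, taken as a measure of RNA composition, had 0 members under the threshold, a median of -0.23 and a mean level from 10.07 to 11.25 on STD (median 10.77) and from 10.06 to 10.96 on TWD (median 10.64). Their part in the ribosomal and mitochondrial differences was not tested. The medians were 0.18 with the nuisance score and 0.16 with the length and GC trend removed for oxidative phosphorylation, 0.17 with the nuisance score and 0.19 with the length and GC trend removed for cytosolic ribosomal proteins, and 0.12 with the nuisance score and 0.13 with the length and GC trend removed for mitochondrial ribosomal proteins.

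Single members behaved as follows. Ndufs5, an accessory subunit of respiratory complex I, ranged from 9.45 to 9.78 on STD (median 9.60) and from 9.81 to 10.88 on TWD (median 10.09), without overlap (log2 fold change 0.56 ± 0.20). For the further accessory subunits Ndufa10 and Ndufb3 the differences were 0.31 ± 0.11 and 0.32 ± 0.11, with 5 of 6 TWD mice above all STD mice for each. Among the genes listed as mitochondrial ribosomal by their symbols, Mrps36 (0.41 ± 0.13) and Mrps14 (0.31 ± 0.12) did not overlap between the diets. Mrps27 (0.28 ± 0.09) and Mrpl23 (0.61 ± 0.23) did. Rps3 of the small ribosomal subunit ranged from 11.83 to 12.09 on STD (median 11.98) and from 12.19 to 12.56 on TWD (median 12.27), without overlap (log2 fold change 0.37 ± 0.14). Rpl22 of the large subunit (0.37 ± 0.13) overlapped in 1 TWD mouse. Many ribosomal protein genes have processed pseudogenes with nearly the same sequence, which makes the level of a single member uncertain.

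Messenger RNAs of cytosolic ribosomal proteins typically begin within a run of pyrimidines, the terminal oligopyrimidine tract, through which mTOR, a kinase downstream of Akt, controls their translation. A run of at least 6 bases that are each C or T, within a window from 10 bases before to 20 bases from the start of transcription on, was found at 1 or more annotated starts of 36 of the 58 ribosomal protein genes matched in RefSeq (62.1%) and of 32.6% of the 11616 genes of the table that were matched. The windows of the 4 ribosomal protein genes with such a run and the smallest p are shown, as examples of such a run, with the longest run in capitals (GRCm38.p6, sense strand of the gene).
Rpl35a, 1 of several annotated starts: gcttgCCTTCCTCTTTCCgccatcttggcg
Rps24: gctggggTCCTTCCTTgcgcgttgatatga
Rps6: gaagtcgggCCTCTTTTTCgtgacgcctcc
Rps27: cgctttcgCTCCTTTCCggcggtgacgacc
They lie at chr16:33056472-33056501 on the + strand, chr14:24490668-24490697 on the + strand, chr4:86857348-86857377 on the - strand and chr3:90213629-90213658 on the - strand. The differences between the diets were 0.43 ± 0.17 for Rpl35a, 0.35 ± 0.14 for Rps24, 0.33 ± 0.14 for Rps6 and 0.42 ± 0.19 for Rps27. The median log2 fold change was 0.34 for the 36 genes with a run and 0.37 for the 22 without one.

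Genes of protein breakdown and folding were also higher at several members. Of 31 proteasome genes, 10 were higher and 0 lower at an unadjusted p under 0.05, and 29 had a positive log2 fold change (median 0.22, 0.12 with the length and GC trend removed). The higher members were between 1 (without STD mouse 3) and 17 (without TWD mouse 4). Psmd7, a subunit of the regulatory lid, ranged from 10.30 to 10.55 on STD (median 10.52) and from 10.61 to 10.76 on TWD (median 10.65). Its groups did not overlap (log2 fold change 0.18 ± 0.07), whereas those of the core subunits Psma7 (0.40 ± 0.13) and Psmb7 (0.23 ± 0.09) and of the ATPase Psmc2 (0.23 ± 0.09) overlapped in 1 TWD mouse each. Of 27 heat shock and unfolded protein response genes, 7 were higher and 0 lower, led by the calcium-binding chaperone Calr (0.36 ± 0.12), the transcription factor Xbp1 (0.28 ± 0.10) and the disulfide isomerase Pdia6 (0.27 ± 0.11). Ddit3, a transcription factor of prolonged endoplasmic reticulum stress, differed by 0.30 ± 0.14. The higher members of this list were between 2 (without STD mouse 5) and 9 (without TWD mouse 1).

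Of 30 autophagy and lysosome genes, 7 were higher and 0 lower, with a list median of 0.03. Gabarapl2, which carries membranes to the autophagosome, ranged from 10.40 to 10.52 on STD (median 10.42) and from 10.59 to 10.84 on TWD (median 10.67), without overlap (log2 fold change 0.25 ± 0.08). Its relatives Gabarap (0.36 ± 0.13) and Map1lc3b (0.22 ± 0.11) and the autophagy receptor Sqstm1 (0.30 ± 0.15), which binds ubiquitinated tau among other cargo, had positive differences in both batches. The higher autophagy and lysosome members were between 3 (in 6 of the 12 fits) and 7 (without TWD mouse 1 or TWD mouse 4). Among antioxidant genes 2 of 22 were higher, the catalase gene Cat (0.24 ± 0.10) and the superoxide dismutase gene Sod1 (0.39 ± 0.18), and the count was between 1 (in 7 of the 12 fits) and 5 (without TWD mouse 4).

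Vascular genes were higher at several members, with differences of up to about 1 log2 unit. Of 16 endothelial markers, 7 were higher and 0 lower at an unadjusted p under 0.05 (median 0.32, 0.20 in batch 0 and 0.34 in batch 1, and 0.17 with the nuisance score). The higher members were between 4 (without TWD mouse 2) and 9 (without TWD mouse 4). Vwf, the von Willebrand factor of blood clotting, ranged from 7.26 to 8.54 on STD (median 7.64) and from 7.91 to 9.59 on TWD (median 8.84). The difference was the largest of the list (log2 fold change 1.01 ± 0.33) and came mostly from 1 batch, at 0.20 in batch 0 and 1.57 in batch 1. Ly6c1, a neighbour of Ly6a with a similar sequence, differed by 0.64 ± 0.20 and the endothelial adhesion protein Pecam1 by 0.41 ± 0.16. The mean of the 16 markers ranged from 7.66 to 8.18 on STD (median 7.82) and from 7.99 to 8.38 on TWD (median 8.23), with 4 of 6 TWD mice above every STD mouse. The endothelial list median was -0.12 for A+T+, 0.10 for A+Tw and 0.15 for AwTw.

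Of 18 markers of mural cells and fibroblasts, which surround vessels and line the meninges, 4 were higher and 0 lower, all of them in contractile or membrane genes, and the count was between 2 (without STD mouse 2) and 8 (without TWD mouse 1). The smooth muscle protein Tagln ranged from 6.02 to 7.56 on STD (median 6.55) and from 6.48 to 8.82 on TWD (median 7.78) (log2 fold change 1.16 ± 0.39), and its difference was 0.72 in batch 0 and 1.51 in batch 1. Smooth muscle actin, Acta2, differed by 1.07 ± 0.37, the pericyte peptidase Anpep by 0.60 ± 0.22 and smooth muscle myosin, Myh11, by 0.72 ± 0.33, where Myh11 was at -0.01 in batch 0 and 1.27 in batch 1. The list median was 0.22 over both batches but -0.09 in batch 0 and 0.87 in batch 1. In the other genotypes this median was -0.32 for A+T+, 0.23 for A+Tw and 0.17 for AwTw. The mean of the list ranged from 7.30 to 8.37 on STD (median 7.78) and from 7.38 to 8.60 on TWD (median 8.33), and the groups overlapped over most of this range. In bulk tissue, more cells of a type and more RNA per cell cannot be told apart, and whether more vessel or meningeal tissue was dissected from some mice was not tested.

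Microglial and innate immune lists had mostly positive differences, with few members under the threshold, where 5.38% of all genes were higher and 2.06% lower. Tyrobp, the adaptor that transmits the signal of Trem2, ranged from 7.56 to 8.35 on STD (median 8.03) and from 8.09 to 8.91 on TWD (median 8.50). Of the 6 TWD mice, 4 were above all STD mice (log2 fold change 0.52 ± 0.18), with 0.53 in batch 0 and 0.49 in batch 1. Trem2 itself, which was not under the threshold, ranged from 6.90 to 7.55 on STD (median 7.30) and from 7.32 to 8.06 on TWD (median 7.62), with a 95% interval of the difference from -0.07 to 0.69 (log2 fold change 0.31 ± 0.19). Aif1, which encodes the microglial protein Iba1, ranged from 6.30 to 6.75 on STD (median 6.60) and from 6.65 to 7.41 on TWD (median 7.09). Of the TWD mice, 5 were above all STD mice (log2 fold change 0.49 ± 0.16), and the secreted glycoprotein Olfml3, another homeostatic marker, differed by 0.33 ± 0.13. Of 13 homeostatic markers 2 were higher and of 23 markers of disease-associated microglia also 2, with 10 and 17 positive log2 fold changes and medians of 0.09 and 0.16. The latter was 0.08 with the nuisance score and 0.10 with the length and GC trend removed, and the former 0.04 with the nuisance score. Leaving out 1 mouse kept the first count at 2 and moved the second from 1 to 4. No marker of either list was lower at that threshold, and of 11 Trem2 signalling genes 2 were higher and 0 lower, with 9 positive log2 fold changes (median 0.12) and 1 to 2 higher members over the mice left out. Tyrobp had the highest log2 fold change of both the Trem2 signalling and the disease-associated list, so the counts of these lists share that gene. The lysosomal protease gene Ctsz of the disease-associated list differed by 0.36 ± 0.19 and was not under the threshold.

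Of 18 complement and innate immune genes, 4 were higher and 0 lower, and 14 had a positive log2 fold change (median 0.25, 0.13 with the nuisance score). The count of higher members was between 1 (without TWD mouse 2 or TWD mouse 3) and 5 (without STD mouse 6 or TWD mouse 4). They were the lipopolysaccharide co-receptor Cd14 (0.37 ± 0.13), the Toll-like receptor adaptor Myd88 (0.34 ± 0.14), the chemokine Ccl4 (0.32 ± 0.15) and the complement component C1qa (0.43 ± 0.20). Of 20 interferon response genes, 4 were higher and 17 had a positive log2 fold change. The number higher was between 0 (without STD mouse 2) and 7 (without TWD mouse 1). Those higher included the transcription factor Irf9 (0.33 ± 0.14) and the induced antiviral genes Ifit3 (0.47 ± 0.22) and Oasl2 (0.52 ± 0.25). The interferon median of 0.28 was -0.03 in batch 0 and 0.42 in batch 1, and Ifit3 was at -0.05 in batch 0 and 0.77 in batch 1. All 15 antigen presentation genes had a positive log2 fold change (median 0.26), with H2-D1 (0.53 ± 0.21) and H2-M3 (0.26 ± 0.12) under the threshold, but this median was also -0.09 in batch 0 and 0.62 in batch 1, and 0.16 with the nuisance score and 0.16 with the length and GC trend removed. The count under the threshold was between 0 (without STD mouse 2) and 6 (without TWD mouse 1). H2-D1 has near-identical relatives, so its level is uncertain.

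**Figure D3:**
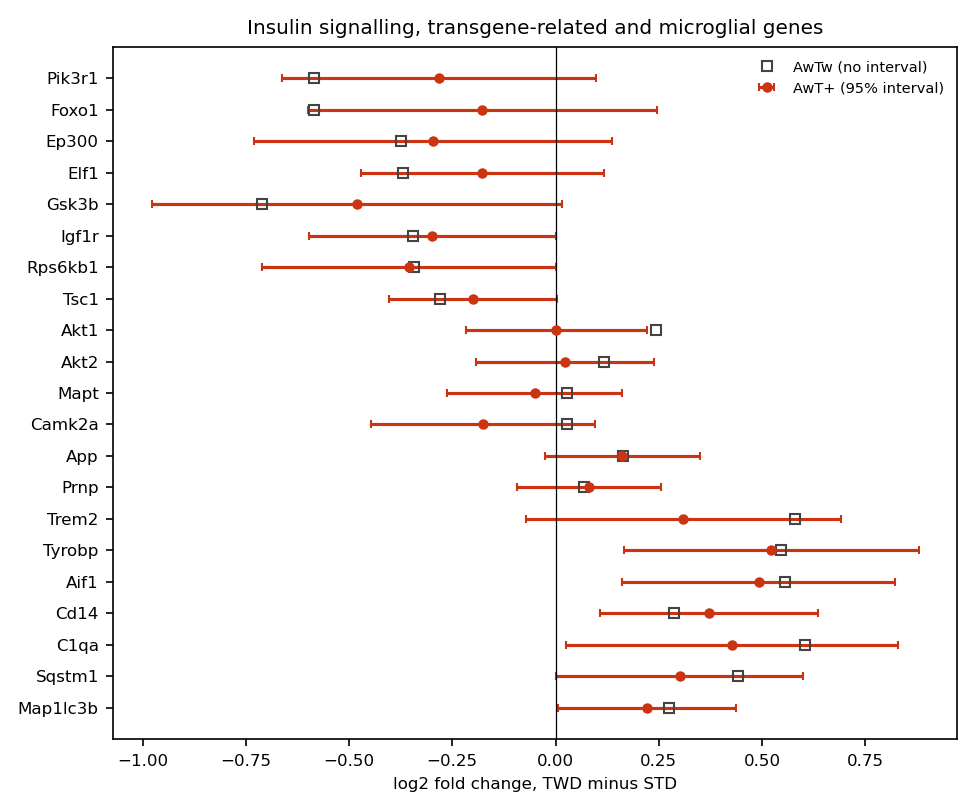
Difference between the diets for 21 genes in AwT+ mice (red points with the 95% interval of the limma fit; x axis, log2 fold change, TWD minus STD), with the AwTw difference as an open square. The intervals of Tyrobp, Aif1, Cd14, C1qa, Sqstm1 and Map1lc3b lie above 0, and those of the 10 uppermost genes, from Pik3r1 to Akt2, reach or cross 0.

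Insulin and PI3K signalling had no member at an unadjusted p under 0.05. Of 32 genes, 0 were higher and 0 lower at that threshold, 21 had a negative log2 fold change, and the median was -0.18 (-0.01 in batch 0 and -0.23 in batch 1). It was -0.06 with the nuisance score and -0.08 with the length and GC trend removed. The members lower at the threshold were between 0 (in 6 of the 12 fits) and 7 (without TWD mouse 5). Pik3r1, the regulatory subunit of PI3K, ranged from 9.81 to 10.30 on STD (median 10.06) and from 9.18 to 10.13 on TWD (median 9.89). The groups overlapped in 4 of 6 TWD mice, and the 95% interval of the difference ran from -0.66 to 0.10 (log2 fold change -0.28 ± 0.19). The AwTw difference of Pik3r1 was -0.58, and the difference between both diet effects, 0.30 ± 0.27 (adjusted p = 0.78 in limma), was within its error. The insulin-like growth factor receptor Igf1r (-0.30 ± 0.15), the ribosomal protein kinase Rps6kb1 (-0.35 ± 0.18) and Tsc1, an inhibitor of mTOR (-0.20 ± 0.10), had the smallest p of the list but were not under the threshold. Akt1 (0.0022 ± 0.11) and Akt2 (0.02 ± 0.11) lay near 0, with intervals from -0.22 to 0.22 and from -0.19 to 0.24. Foxo1, a transcription factor that Akt keeps out of the nucleus, differed by -0.18 ± 0.21, the acetyltransferase Ep300 by -0.30 ± 0.21 and the Ets factor Elf1 by -0.18 ± 0.15, none of them under the threshold.

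Mapt was not under the threshold. Its level ranged from 12.92 to 13.20 on STD (median 13.01) and from 12.59 to 13.40 on TWD (median 12.95), with TWD values on both sides of the STD range (log2 fold change -0.05 ± 0.10, 95% interval from -0.26 to 0.16). Camk2a, the gene of a CaMKII subunit, differed by -0.18 ± 0.13 and was not under it either. The values of Mapt come from mouse gene models, and the level of the human transgene was not analysed here. Of 24 tau kinases 0 were higher and 0 lower (median -0.08), and the lower ones were between 0 (in 9 of the 12 fits) and 3 (without TWD mouse 5). Gsk3b ranged from 10.69 to 11.18 on STD (median 11.04) and from 9.70 to 11.33 on TWD (median 10.57), with a wider spread on TWD (log2 fold change -0.48 ± 0.25, 95% interval -0.98 to 0.02). Dyrk1a, which primes tau for Gsk3b, differed by -0.26 ± 0.15, and neither of these kinases was under the threshold. Of 16 tau phosphatase and chaperone genes 3 were higher, the phosphatase scaffold Ppp2r1a (0.36 ± 0.16), the constitutive chaperone Hspa8 (0.21 ± 0.10) and the immunophilin Fkbp4 (0.26 ± 0.13). This count was between 0 (without STD mouse 5, TWD mouse 3 or TWD mouse 6) and 4 (without TWD mouse 4).

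Of 13 tau and microtubule genes 3 were higher and 0 lower, and all 3 were stathmins, which bind tubulin and promote microtubule disassembly. This count was between 1 (in 8 of the 12 fits) and 6 (without TWD mouse 4). Stmn1 ranged from 11.96 to 12.07 on STD (median 12.02) and from 12.14 to 12.55 on TWD (median 12.25), without overlap (log2 fold change 0.28 ± 0.11). Stmn2 differed by 0.31 ± 0.15 and Stmn3 by 0.35 ± 0.17, and Stmn4, described above, was among the 12 genes with the smallest p. App differed by 0.16 ± 0.09 and Prnp by 0.08 ± 0.09, and neither was under the threshold.

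The lipid and cholesterol lists had few members under the threshold, where 5.38% of all genes were higher and 2.06% lower. Of 23 cholesterol synthesis genes 3 were higher and 0 lower, and the median was 0.01. The 3 were the sterol isomerase Ebp (0.29 ± 0.12), the farnesyl diphosphate synthase Fdps (0.32 ± 0.15) and the acetyl-CoA acetyltransferase Acat2 (0.19 ± 0.09), and their number was between 0 (without TWD mouse 3 or TWD mouse 6) and 6 (without TWD mouse 4). Of 25 lipid transport genes the apolipoprotein Apod was higher (0.55 ± 0.23), at 0.09 in batch 0 and 0.86 in batch 1, and the reelin and apolipoprotein E receptor Lrp8 was lower (-0.32 ± 0.14), where the number higher was between 0 (without TWD mouse 2 or TWD mouse 3) and 3 (without TWD mouse 4) and the number lower between 0 (in 4 of the 12 fits) and 2 (without TWD mouse 4 or TWD mouse 5). Of 28 genes of fatty acid metabolism 1 was higher (0 to 2 over the mice left out) and 2 were lower (0 to 3). Ppargc1a, a coactivator of mitochondrial biogenesis, ranged from 8.93 to 9.31 on STD (median 9.08) and from 7.28 to 9.24 on TWD (median 8.61) and was lower (log2 fold change -0.69 ± 0.33). Pdk4, which restrains the entry of pyruvate into the citric acid cycle, was lower too (-0.30 ± 0.15). Of 24 genes of glucose transport and glycolysis, 22 had a positive log2 fold change (median 0.15) and 4 were higher at an unadjusted p under 0.05, among them Ldha (0.21 ± 0.09), Aldoc (0.28 ± 0.13) and Pgam1 (0.19 ± 0.09). That number was between 0 (without STD mouse 3) and 7 (without TWD mouse 4), and it was 0 with the length and GC trend removed. The glycolysis median was 0.04 with the nuisance score and 0.05 with the length and GC trend removed.

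Glutamate receptor and chromatin lists had mostly negative differences, with few members under the threshold, where 5.38% of all genes were higher and 2.06% lower. Of 36 glutamate receptor and postsynaptic genes 27 had a negative log2 fold change (median -0.17, -0.07 with the nuisance score and -0.08 with the length and GC trend removed), but 0 were lower at the threshold and 1, the presynaptic receptor Grm2, was higher (0.40 ± 0.17). Of this list, 0 to 1 were higher and 0 to 3 lower over the mice left out. The 24 synaptic vesicle genes had 16 positive log2 fold changes (median 0.05), and 1 was higher, the vesicle GTPase Rab3a (0.26 ± 0.11), with 0 to 3 higher over the mice left out. Of 30 chromatin regulators 24 had a negative log2 fold change (median -0.17), 4 were lower and 1 was higher. The number lower was between 1 (without TWD mouse 3) and 10 (without TWD mouse 5). Setd5, a chromatin regulator of neuronal development, ranged from 10.41 to 10.64 on STD (median 10.50) and from 9.71 to 10.39 on TWD (median 10.28), without overlap (log2 fold change -0.32 ± 0.13). The DNA methyltransferase Dnmt3a differed by -0.40 ± 0.17 and the chromatin remodelling subunit Arid2 by -0.44 ± 0.20, while the remodelling ATPase Smarca2 was higher by 0.17 ± 0.07. The list median with the length and GC trend removed was -0.12.

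Neuronal and glial lists held differences of both signs, and the members named here were chosen for a small p. Of 20 hippocampal subfield genes 11 had a positive and 9 a negative log2 fold change. Among 22 interneuron and neuropeptide genes these were 18 and 4, and among 14 astrocyte genes 6 and 8. The lowest values were -0.29, -0.51 and -0.51 in that order, and 0 members of these lists were lower at the threshold. Pcp4, a calmodulin-binding protein of the CA2 subfield, differed by 0.40 ± 0.14, the opioid precursor Pdyn by 0.42 ± 0.17 and Pvalb, of fast-spiking interneurons, by 0.48 ± 0.20. The activity-induced nuclear receptor Nr4a3 was lower (-0.55 ± 0.25), at -0.10 in batch 0 and -0.85 in batch 1. The astrocyte genes Aldh1l1 (0.29 ± 0.12), of folate metabolism, and Gjb6 (0.36 ± 0.17), a gap junction protein, were higher. Of the 14 astrocyte markers 3 were higher and 0 lower, although their median was -0.08. The number higher was between 1 (without STD mouse 5, TWD mouse 2 or TWD mouse 3) and 4 (without TWD mouse 1). The intermediate filament gene Vim, of the separate reactive astrocyte list, was higher too (0.45 ± 0.21). The lists of oligodendrocytes (15 genes), their precursors (9), ependymal cells (7) and the circadian clock (19) had 0 members at an unadjusted p under 0.05 in either direction, and at most 1 over the mice left out.

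Choroid plexus markers had the widest spread between mice of the 40 lists. All 18 markers had a negative log2 fold change (median -0.68, range -1.02 to -0.13), yet 0 of 18 had an unadjusted p under 0.05, and the median was -3.15 in batch 0 and 1.07 in batch 1. Their mean ranged from 6.31 to 10.14 on STD (median 9.22) and from 6.01 to 9.86 on TWD (median 7.88), and both groups covered nearly the whole range. Ttr, the transthyretin of choroid plexus epithelium, ranged from 8.05 to 16.58 on STD (median 15.94) and from 7.49 to 16.97 on TWD (median 13.83) (log2 fold change -1.02 ± 1.72, not under the threshold). The 4 blood markers, haemoglobin genes that come in near-identical pairs, had a median of -0.47 with 0 under the threshold, and their mean ranged from 6.35 to 8.09 on STD (median 7.14) and from 6.32 to 7.70 on TWD (median 6.59).

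The diet differences of AwT+ mice ran in the same direction as those of the other genotypes for most genes. Of the 855 genes higher in AwT+ mice, 89.6% had a positive difference in AwTw mice as well, and the share was 87.7% for A+Tw and 72.4% for A+T+ mice. Of all genes, 50.0%, 49.1% and 48.9% had one. Of the 328 lower genes, 87.5%, 87.5% and 79.9% had a negative difference in those genotypes, in the same order. The genotypes share no mice in these differences but share the fit and the batch correction. Across all genes, which are not independent replicates, the log2 fold changes of AwT+ mice correlated with those of AwTw mice at a Pearson r of 0.675, of A+Tw mice at 0.617 and of A+T+ mice at 0.361. The medians of the ribosomal list were 0.13 for A+T+, 0.32 for A+Tw and 0.57 for AwTw, and those of oxidative phosphorylation were 0.12 for A+T+, 0.27 for A+Tw and 0.48 for AwTw.

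**Figure D4:**
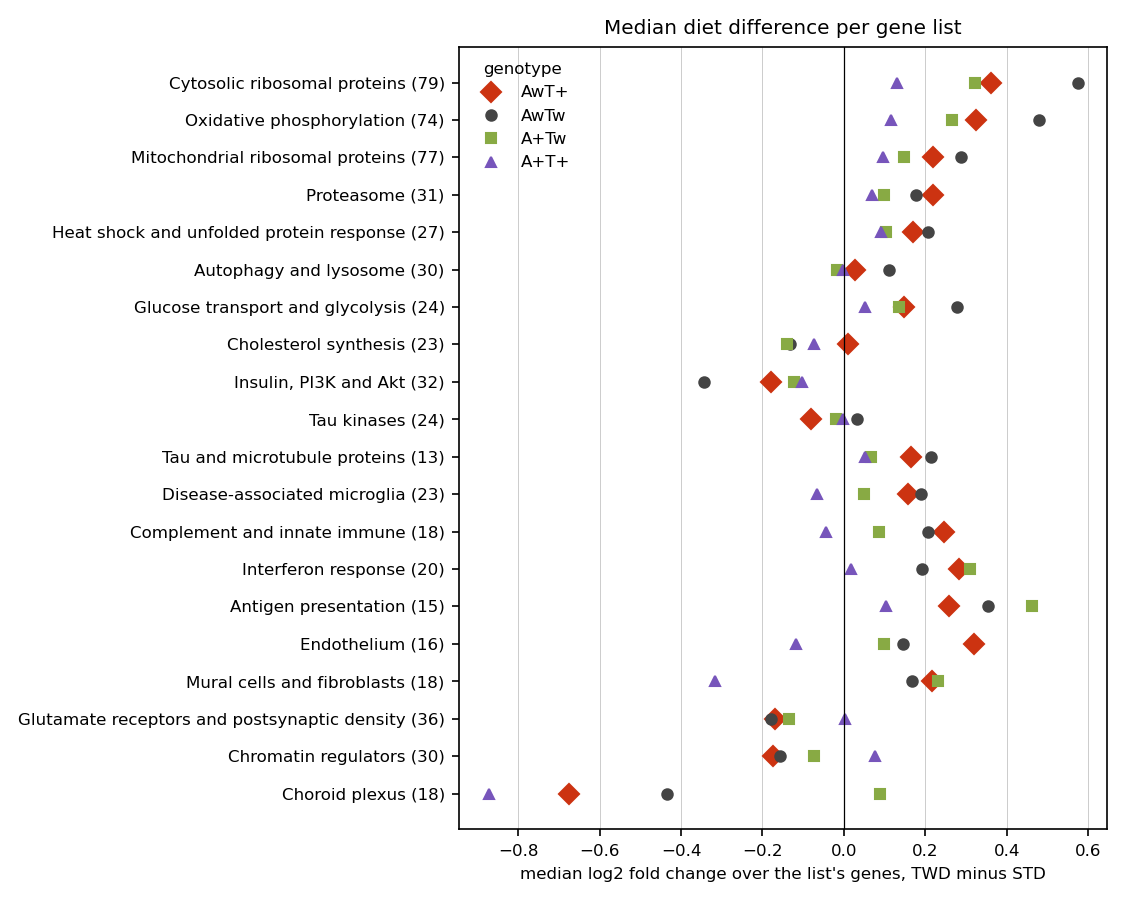
Median log2 fold change (x axis, TWD minus STD) over the measured genes of 20 lists (y axis, number of genes in parentheses) in each genotype. AwT+ mice (red diamonds) lie between AwTw and A+T+ mice for the cytosolic ribosomal, oxidative phosphorylation and mitochondrial ribosomal lists, and have the highest endothelial median, at 0.32. The mural cell and fibroblast median is 0.22 in AwT+ and 0.23 in A+Tw mice.

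No gene differed between the diet effects of AwT+ and AwTw mice at an adjusted p of 0.05 in limma (smallest 0.696). At an unadjusted p under 0.05, 391 of 15897 genes had a positive and 248 a negative difference (AwT+ minus AwTw diet effect). The sign of this difference does not tell which diet effect is larger in size. The 6 named genes with the smallest p for this difference are given as a description, since they were chosen for it. Baiap2l2, a membrane-curving protein, was lower on TWD in AwT+ (-0.31) and higher in AwTw mice (0.65), a difference of -0.95 ± 0.21 (adjusted p = 0.696 in limma). Tmco1, a calcium channel of the endoplasmic reticulum, was higher in AwT+ (0.32) and lower in AwTw mice (-0.37), a difference of 0.69 ± 0.16. Gbe1, the glycogen branching enzyme, was at 0.23 against -0.66, and Exd1 at 0.06 against -0.69. Mocs1, of molybdenum cofactor synthesis, was at -0.03 against 0.64, and Rpusd3, a mitochondrial pseudouridine synthase, at -0.16 against 0.61. In AwTw mice each of the 6 had an adjusted p of 0.0498 for diet in limma, the smallest of all genes there. This is no trait of the 6, since 1487 of 15897 genes had an adjusted p under 0.05 in AwTw mice. A choice by the difference also favours genes with a large AwTw effect. In AwT+ mice Gbe1, Exd1, Mocs1 and Rpusd3 were not under the threshold. Exd1 and Mocs1 lay near 0 in AwT+ mice, and their sign there turned when some of the mice were left out. Against the mean diet effect of the other 3 genotypes, 0 genes passed in limma (smallest adjusted p 0.9999). At an unadjusted p under 0.05, 196 of 15897 genes had a positive and 97 a negative difference from that mean.

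The main axis of variation among the 12 AwT+ mice, the first principal component of all genes, held 36.5% of their variance. Its score averaged -11.1 ± 8.77 (SD, n = 6) on STD and 11.1 ± 30.7 (SD, n = 6) on TWD, and this difference had an exact permutation p of 0.123 (two-sided, diets reassigned within batch in 350 ways, smallest possible p 0.00286). The TWD mice spread from -30.6 (mouse 4) to 60.5 (mouse 3), beyond the STD range of -21.2 to 1.6 on both sides. Leaving out AwT+/TWD mouse 4 gave an exact permutation p of 0.02, and leaving out AwT+/TWD mouse 3 gave 0.495. The axis was oriented so that mice with high ribosomal protein levels have high scores.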

How the data were processed

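Hippocampal RNA of 45 mice was sequenced. The authors trimmed reads with Trimmomatic 0.38, removed unwanted RNA with Bowtie2 2.2.3, quantified transcripts with kallisto 0.44.0 and summed them per gene. After leaving out genes of low mean count, the authors stabilized the variance with DESeq2 1.22.2 and took out batch with limma 3.38.3, so the deposited values are on a log2 scale. Read counts were not used here. The authors state a minimum read depth for the samples, but the depth of each mouse is unknown.

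Here limma 3.58.1 in R 4.3.3 was fitted to the deposited values of all 45 mice (8 groups, batch as covariate, mean trend, 36 residual degrees of freedom), with two-sided p adjusted by Benjamini-Hochberg over 15897 genes. Batch was thus corrected by the authors and fitted again, with its degree of freedom counted. Each mouse is a separate animal. Exact tests, lists and plots used Python 3.11.15 with numpy 2.4.6, scipy 1.17.1, pandas 2.3.3 and matplotlib 3.10.9. Symbols and coordinates came from GENCODE M21 (GRCm38), with a symbol for 15707 genes, and start windows from RefSeq (GRCm38.p6). Exact copies of another gene (157) were kept, with an alternative without them.

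Named genes were the 12 with the smallest p in each direction, those with a role in the transgenes, insulin signalling, Trem2 and autophagy, up to 4 per list, and 6 for the difference from AwTw. A few genes that this rule selects are not reported here. Rps24, Rps6 and Rps27 (shown for their start windows) and Ttr were named after their values were seen. The comparison, the 40 lists and these genes were chosen with earlier results of these data known. The alternatives dropped the batch covariate, took batch 0 or batch 1 alone, or kept only the 12 AwT+ mice. Others added the label prefix or a nuisance score (full values weighted by the first component of the residuals) as covariate, or normalized by quantiles. Further ones kept genes above the 25th percentile, dropped the mean trend or the copied genes, or removed the trend over length and GC content (known for 98.7% of genes). The last left out each AwT+ mouse. List medians in some alternatives, and list counts without each mouse, were added after the data were seen.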

Additional observations from a re-analysis of the deposited data

Results flagged for a closer look

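In groups of 6 mice, a mouse was singled out where its gap to the nearest other mouse exceeded 0.625 of the range of the group, which chance gives in about 1 of 20 groups. The groups examined hold the same mice and genes that move together, so they are not separate observations. Of 288 groups, 12 had a mouse singled out, no more than a rate of 1 in 20 gives, and the cases are listed as a description. AwT+/TWD mouse 3 was the one in 5 of them. In that mouse Ndufs5 (10.88 against 10.16 in the nearest mouse, 0.672 of the range), Mrpl23 (9.92 against 9.15 in the nearest mouse, 0.718 of the range) and H2-M3 (6.51 against 6.02 in the nearest mouse, 0.745 of the range) were high, as was the mean of the blood markers (7.70 against 6.66 in the nearest mouse, 0.753 of the range), and Setd5 was low (9.71 against 10.19 in the nearest mouse, 0.714 of the range). AwT+/TWD mouse 4 was the highest of its group in the mean of the heat shock and unfolded protein response genes (10.53 against 10.41 in the nearest mouse, 0.635 of the range).

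Among the AwT+/STD mice, mouse 3 was low in the mean of the oxidative phosphorylation genes (10.39 against 10.51 in the nearest mouse, 0.682 of the range), in the mean of the mitochondrial ribosomal protein genes (8.54 against 8.68 in the nearest mouse, 0.697 of the range) and in Stmn2 (11.82 against 12.08 in the nearest mouse, 0.627 of the range). Mouse 5 was low in Rpusd3 (7.43 against 7.70 in the nearest mouse, 0.667 of the range) and in H2-M3 (5.45 against 5.75 in the nearest mouse, 0.643 of the range). Mouse 4 was high in Phc1 (10.45 against 9.94 in the nearest mouse, 0.682 of the range).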

How the results depend on the processing

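With limma, 0 genes passed the adjusted threshold for diet in AwT+ mice in each of the 23 alternatives. For its difference from AwTw or from the other genotypes, 0 genes passed in each alternative that held the other genotypes. The genes higher at an unadjusted p under 0.05 were 477 in batch 0 alone and 537 in batch 1 alone, and the lower genes were 673 with only the 12 AwT+ mice in the fit. In the other settings that keep all mice, those counts stayed within 1.5 times of the main ones. Leaving out each mouse in turn moved the genes under that threshold from 582 to 1924 in all, the higher ones from 435 to 1383 and the lower ones from 147 to 589. The lowest of each came without AwT+/TWD mouse 3 and the highest without AwT+/TWD mouse 4 or, for the lower genes, mouse 5. Without AwT+/STD mouse 5 the genes were 780 in all and 198 lower. The difference of the first principal component between the diets ranged from 9.09 to 30.05 over the mice left out. The genes whose values did not overlap were 149, and 144 and 134 in the 2 alternatives.

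Of the 122 genes named, 108 kept their direction in all 23 alternatives. In batch 0 alone the direction turned for Mtmr12 (0.022), Mapt (0.13), Camk2a (0.22), Foxo1 (0.026), Gbe1 (-0.053), Exd1 (-0.28), Myh11 (-0.0061) and Ifit3 (-0.055), and in batch 1 alone for Prnp (-0.052), Akt1 (-0.013), Mocs1 (0.020) and Ttr (3.05). With the length and GC trend removed it turned for Prnp (-0.0034), Elf1 (0.059), Akt1 (-0.15) and Akt2 (-0.062), with a nuisance score as covariate for Foxo1 (0.047), Akt1 (-0.066) and Akt2 (-0.028), and with quantile normalization for Akt1 (-0.048). Over the mice left out, Mapt ranged from -0.14 to 0.024, Akt1 from -0.079 to 0.063, Akt2 from -0.013 to 0.072, Mocs1 from -0.12 to 0.049, Exd1 from -0.0094 to 0.16 and Ttr from -2.42 to 0.19. The cause was not tested. No paired analysis was possible because the replicate numbers only name mice in the order of the records and the labels pair no mice across diets. The depth per mouse is unknown, so precision rests on the spread between mice.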

Other observations

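Some lists were not described above, or were described without their number of higher members. Their counts stand beside 5.38% of all genes higher and 2.06% lower, and no result is read from counts this small. Of 22 interneuron and neuropeptide genes 2 were higher and 0 lower at an unadjusted p under 0.05 (median 0.14), of 20 hippocampal subfield genes 1 and 0 (median 0.0011), of 13 reactive astrocyte genes 1 and 0 (median 0.10), and of 15 glucocorticoid response genes 1 and 2 (median 0.05). Of 23 immediate early genes 0 were higher and 1 was lower (median -0.07), and of 15 genes of striatum, thalamus and cortex, which mark tissue next to the hippocampus, 1 was higher and 0 lower (median -0.05). With single mice left out, these counts ranged from 0 to 4. The values of 21 genes differed by more than 1 log2 unit between the diets in AwT+ mice, 11 higher and 10 lower, and 11 of them had an unadjusted p under 0.05.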
